A study of Mus musculus with 8 samples.

Results

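The genes described here are 10 members of the intermediate filament family: Nes, Vim, Des, Synm, Gfap, Prph, Krt7, Krt8, Krt18 and Lmna. The list was chosen by the genes' levels in double against triple knockout samples, known from earlier work on these data, and was matched by symbol to the gene identifiers of the count tables. All 10 were found among 52636 genes. The samples are RNA-seq libraries of malignant mesothelioma, which arises in the membranes around lung, gut and heart, from conditional mouse models. In 2 double knockout samples the genes Nf2 and Cdkn2a are inactivated, and in 6 triple knockout samples Bap1 is inactivated as well, so loss of Nf2 and Cdkn2a is shared by all 8. The labels give neither the strain, age and sex of the mice nor the agent and cell type of the deletion. They describe cells kept in RPMI medium, but transcripts of leukocytes and endothelium were counted in all samples, and whether tumours or cultures were sequenced is not settled. The number of mice behind the samples is not stated either.

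Intermediate filaments are the rope-like part of the cytoskeleton, built from coiled-coil proteins that pair and then bundle without a polarity. Their makeup is a classical label of cell identity: keratins in epithelia, vimentin in mesenchyme, desmin in muscle, nestin in precursor cells, and lamins under the nuclear envelope of nearly all cells. Mesothelium is unusual in that it carries both keratins and vimentin, and keratin staining has long been used by pathologists to recognise mesothelioma.

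Total counts ran from 26847202 to 32082535 per sample. Levels are CPM, a gene's count relative to the library total, scaled with a TMM factor that corrects for library composition. The factor was 0.771 in double sample 1 and 0.994 to 1.10 in the other samples. Double sample 1 also had the highest share of mitochondrial counts, 4.04% against 1.16% to 2.33%. Bap1 had 71.1 and 105 CPM in the double group and ranged from 43.1 to 72.0 CPM in the triple group, so the groups overlapped, and neither it nor Nf2 or Cdkn2a was called (edgeR adjusted p = 0.122, 0.103 and 0.306). Whole-gene counts include exons outside a deletion and check the labels weakly. The mesothelial markers Msln and Pdpn were counted in every sample, at 12.6 CPM or more. Upk3b, Upk1b and Muc16, which also mark mesothelium, stood at 173, 136 and 95.7 CPM in triple sample 3, and none exceeded 2.52 CPM in any other sample. Calb2, another defining marker, had a count in only 1 sample.

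Since the double and triple levels served in choosing the genes, they are given as a description. Nes, the gene of the large filament protein nestin of neural and muscle precursors, was the member that parted the genotypes furthest without overlap. It reached 966 CPM in double sample 1 and 827 CPM in double sample 2. Triple samples 1 to 6 gave 58.0, 49.9, 42.3, 160, 71.6 and 193 CPM. Both double samples were high, and the lower of them was 4.29 times the highest triple sample. The fitted difference was a log2 fold change, triple minus double, of -3.23 ± 0.54 (SE), or 9.36-fold lower in the triple samples. It was -3.12 without double replicate 1 and -3.32 without double replicate 2, so either double sample alone gave a similar size.

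Nes lies on chromosome 3 (GRCm38, 87971078 to 87980451, plus strand), with 4 merged exons over 6.42 kb in GENCODE M21. The 250 bases before the RefSeq start of Nes are shown with those of Des. Both genes had their highest levels in double sample 1, as did Synm, whose window is not shown. Capitals mark 3 motifs searched on both strands: CAGCTG, the form of E-box that muscle-determining factors bind, TATAAA, the TATA box, and GGGCGG, the GC box, read as CCGCCC on the other strand. The Nes window is chr3:87970843-87971092 and the Des window chr1:75360042-75360291, both on the plus strand of GRCm38.p6.
Nes: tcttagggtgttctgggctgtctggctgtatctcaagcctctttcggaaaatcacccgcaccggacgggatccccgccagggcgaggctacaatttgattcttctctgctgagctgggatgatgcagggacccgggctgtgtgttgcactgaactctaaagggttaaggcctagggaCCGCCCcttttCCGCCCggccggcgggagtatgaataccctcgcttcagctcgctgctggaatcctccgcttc
Des: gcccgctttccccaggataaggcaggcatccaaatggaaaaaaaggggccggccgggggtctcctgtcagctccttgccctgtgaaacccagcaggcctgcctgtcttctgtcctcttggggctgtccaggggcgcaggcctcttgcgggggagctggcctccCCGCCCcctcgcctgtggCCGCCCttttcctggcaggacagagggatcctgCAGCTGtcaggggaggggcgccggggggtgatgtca
The Des window held CAGCTG once, with its first base 36 bases before the start, a motif found in 13.0% of all 32851 RefSeq windows of this length. The Nes window held no CAGCTG and no TATAAA. The Nes and Des windows each held the GC box 2 times, a motif in 32.7% of all windows. The window of Synm held none of the 3 motifs. A match of letters is a description and shows no binding.

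Des (chromosome 1, 75360329 to 75368579, plus strand) encodes desmin, the muscle filament that ties neighbouring sarcomeres together. It reached 8035 CPM in double sample 1 and 818 CPM in double sample 2, and the 6 triple samples in order gave 90.4, 1013, 187, 39.7, 438 and 681 CPM. Double sample 1 was far above all others, while double sample 2 lay below triple sample 2, so the groups overlapped. The log2 fold change was -3.44 ± 1.06 (SE) over all 8 samples, -1.002 without double replicate 1 and -4.28 without double replicate 2.

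Synm (chromosome 7, 67730160 to 67759742, minus strand) encodes synemin, which joins desmin and vimentin filaments to anchoring proteins of the muscle membrane. It reached 246 CPM in double sample 1 and 16.02 CPM in double sample 2, and the 6 triple samples in order gave 19.97, 174, 18.8, 9.61, 55.9 and 58.5 CPM. Double sample 2 was lower than 5 of the 6 triple samples. The log2 fold change of -1.22 ± 1.09 (SE) turned to 1.82 without double replicate 1, and was -2.11 without double replicate 2.

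The levels of Des followed markers of adult skeletal muscle across the triple samples. The summed CPM of 10 such markers, among them the actin Acta1 and the myosin Myh4, was 11903, 5800, 4554, 1666, 764 and 129 in triple samples 2, 6, 5, 3, 1 and 4, which is also the order of Des from high to low. The markers summed to 66599 CPM in double sample 1 but 2724 CPM in double sample 2, and none of the 10 markers was called between the genotypes by edgeR. In double sample 2 and triple sample 4 Des stood at 0.663 and 0.901 of the CPM of Acta1, against 0.241 to 0.399 in the other 6 samples. The part of muscle cells in the level of Des was not tested, and in bulk samples fewer cells of a type and less RNA per cell cannot be told apart.

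The 12 embryonic myogenic markers include the factor Myog and the embryonic myosin Myh3. They summed to 8598 and 2970 CPM in the double samples and to 5.14 to 184 CPM in the triple samples. All 12 were called lower by edgeR, beside 5.41% of all genes. Nothing is read from this count, since the list was chosen with earlier results of these data known. Nes moved with these markers between the genotypes, and their part in its level was not tested. Within the triple samples the orders differed. Triple sample 4 had the lowest sum, 5.14 CPM, and the second highest Nes, 160 CPM. Triple sample 2 had the second highest sum, 115 CPM, and the second lowest Nes, 49.9 CPM. Nestin also marks pericytes. A list of 6 pericyte genes summed to 476 and 485 CPM in the double samples and 264 to 443 CPM in the triple samples. Of these genes 1 was called lower, beside the same 5.41% of all genes.

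**Figure D1:**
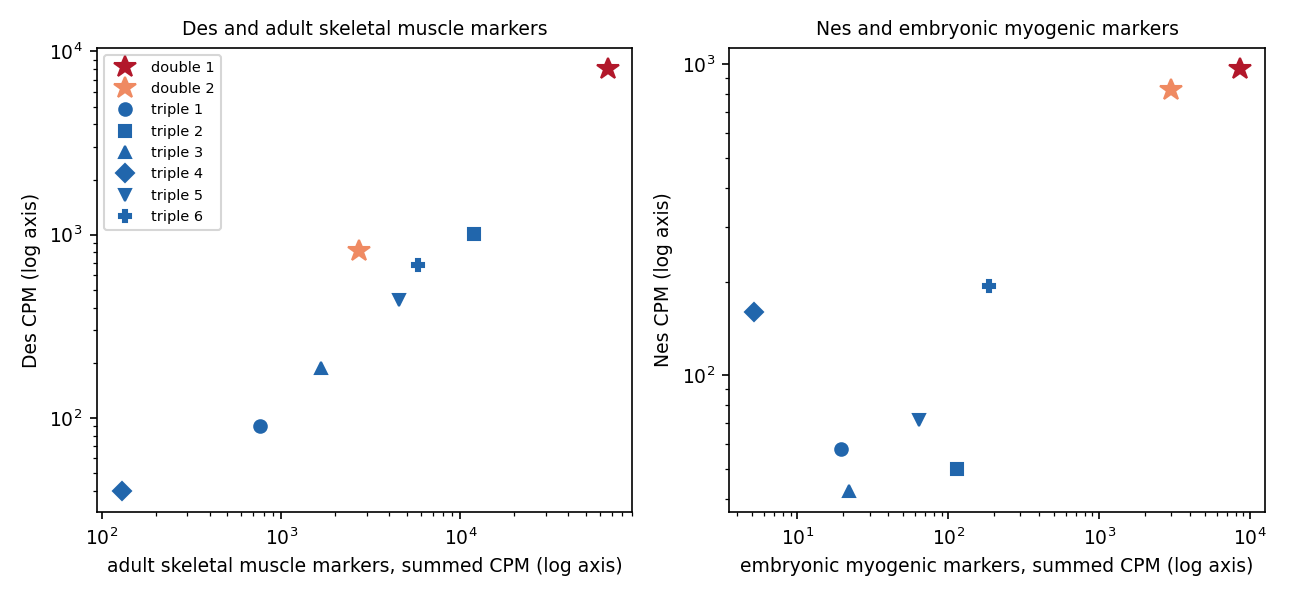
Left, CPM of Des against the summed CPM of 10 adult skeletal muscle markers; right, CPM of Nes against the summed CPM of 12 embryonic myogenic markers; each point is 1 sample (stars double, other shapes triple) and all axes are logarithmic. Des runs from 39.7 CPM in triple sample 4 to 8035 CPM in double sample 1 along the adult markers, whereas triple sample 4 has 160 CPM of Nes at the lowest myogenic sum, 5.14 CPM.

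Vim (chromosome 2, 13573927 to 13582826, plus strand) is the gene of vimentin, the filament of mesenchymal cells. It reached 2504 CPM in double sample 1 and 3423 CPM in double sample 2. Triple samples 1 to 6 gave 5193, 4441, 5841, 4776, 4599 and 6140 CPM. Every triple sample was above both double samples, the lowest of them 1.30 times the higher double sample. The log2 fold change was 0.80 ± 0.26 (SE), or 1.74-fold higher in the triple samples, with 0.59 without double replicate 1 and 1.06 without double replicate 2. The summed level of 6 fibroblast genes was 8699 and 9415 CPM in the double samples and 9643 to 34962 CPM in the triple samples, and most of it came from the collagens Col1a1 and Col1a2. Of the 6, Pdgfra was called higher, beside 2.94% of all genes, and the groups overlapped for the other 5. Their part in the level of Vim was not tested.

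Gfap (chromosome 11, 102887336 to 102900912, minus strand), the gene of a filament of astrocytes and non-myelinating Schwann cells, was sparse. It had 25 and 17 counts in double samples 1 and 2, or 1.011 and 0.61 CPM, and the 6 triple samples in order gave 2.95, 0.92, 3.40, 0.36, 11.2 and 1.93 CPM. Triple sample 5 was the highest and triple sample 4 lay below both double samples. Triple sample 5 also had the highest sum of 8 Schwann and glial markers, 499 CPM against 116 to 356 CPM in the other triple samples and 164 and 185 CPM in the double samples. Among those markers Sox10, the defining factor of glia of the neural crest, stood at 109 CPM in triple sample 5. The part of these cells in the level of Gfap was not tested.

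Prph (chromosome 15, 99055174 to 99058978, plus strand), the gene of peripherin in peripheral neurons, had 9 to 146 counts per sample. It reached 1.09 CPM in double sample 1 and 0.58 CPM in double sample 2, and the 6 triple samples in order gave 1.43, 0.32, 4.68, 1.32, 1.013 and 0.30 CPM. The groups overlapped, and triple sample 3 was the highest. The log2 fold change was 0.86 ± 1.03 (SE) and 0.07 without triple replicate 3. For Gfap it was 2.09 ± 1.21 (SE), and 1.23 without triple replicate 5.

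Krt8 and Krt18 encode the keratin pair of simple epithelia, which assemble as obligate partners of a type II and a type I chain. Krt8 (chromosome 15, 101996711 to 102004342, minus strand) and Krt18 (102028216 to 102032026, plus strand) lie 23.9 kb apart and are transcribed away from each other. Krt8 reached 16.5 CPM in double sample 1 and 798 CPM in double sample 2, and the 6 triple samples in order gave 32.1, 84.1, 24.2, 179, 13.5 and 1.23 CPM. Krt18 reached 10.6 CPM in double sample 1 and 203 CPM in double sample 2, and the 6 triple samples in order gave 6.83, 49.1, 54.3, 71.1, 17.9 and 39.2 CPM. Double sample 2 held the highest level of both genes, while double sample 1 was among the lowest, so the double samples lay on both sides of most triple samples. The log2 fold change of Krt8, -2.87 ± 1.40 (SE), turned from -3.83 without double replicate 1 to 1.77 without double replicate 2. That of Krt18, -1.43 ± 0.94 (SE), turned from -2.35 to 1.92 in the same way.

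The windows before the starts of this pair are shown because their levels parted in some samples. They are chr15:102004343-102004592 on the minus strand for Krt8 and chr15:102027966-102028215 on the plus strand for Krt18, again from RefSeq on GRCm38.p6.
Krt8: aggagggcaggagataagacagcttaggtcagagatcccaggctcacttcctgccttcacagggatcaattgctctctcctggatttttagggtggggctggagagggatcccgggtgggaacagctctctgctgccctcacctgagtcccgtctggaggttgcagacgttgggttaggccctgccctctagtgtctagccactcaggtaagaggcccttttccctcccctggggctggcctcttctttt
Krt18: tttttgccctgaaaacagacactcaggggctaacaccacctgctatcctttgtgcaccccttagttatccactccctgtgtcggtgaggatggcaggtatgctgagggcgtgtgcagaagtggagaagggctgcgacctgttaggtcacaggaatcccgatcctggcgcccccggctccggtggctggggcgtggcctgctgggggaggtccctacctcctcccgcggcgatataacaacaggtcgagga
Neither window held any of the 3 motifs. The Krt18 window held 12 CpG dinucleotides and the Krt8 window 3, where the median over all windows was 6.

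Per kilobase of exon, the transcripts of the pair were far from equal in some samples. The level of Krt8 was 1.14 and 2.89 times that of Krt18 in double samples 1 and 2, and 3.45, 1.26, 0.328, 1.85, 0.552 and 0.0231 times in triple samples 1 to 6. In triple sample 6 there were 37 counts of Krt8 against 1176 of Krt18, and the level of Krt18 per kilobase was 43.3 times that of Krt8. By merged exon length, the other type II keratins did not fill the gap. The lengths used were 7.05 kb for Krt7, 1.96 kb for Krt8 and 1.44 kb for Krt18, and the ratios depend on them. The summed level of all type II keratins per kilobase was 0.0699 of that of all type I keratins in triple sample 6, 0.271 in triple sample 3 and 0.546 in triple sample 5. In the other 5 samples type II transcripts were the more abundant, at 1.23 to 2.85 times. Krt8 also has an annotated pseudogene and shares 101 of its 1958 exon bases with Gm36026 on the other strand, so its counts are uncertain to that extent. Of the other members, Des shares 220 exon bases with the antisense gene Gm15179, Synm 84 with Ttc23 and 426 with Gm45102, and Krt7 77 with Gm671.

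**Figure D2:**
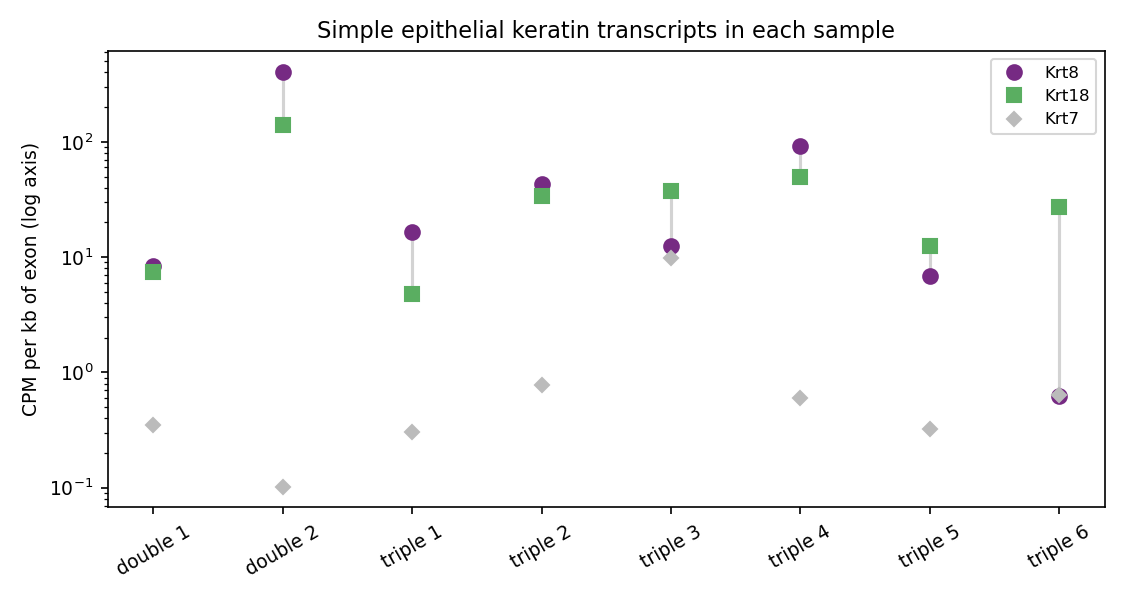
Level of Krt8, Krt18 and Krt7 in CPM per kilobase of merged exon on a log axis for each of the 8 samples, with a grey line joining Krt8 and Krt18 of 1 sample. Krt8 lies above Krt18 in double sample 2 and far below it in triple sample 6, where the ratio is 0.0231.

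Krt7 (chromosome 15, 101411043 to 101430313, plus strand), a type II keratin of simple epithelia and mesothelium, was low except in 1 sample. It reached 2.47 CPM in double sample 1 and 0.72 CPM in double sample 2, and the 6 triple samples in order gave 2.16, 5.47, 69.9, 4.21, 2.28 and 4.53 CPM. Triple sample 3 alone was high. Triple samples 1 and 5 lay between the double samples, and triple samples 2, 4 and 6 lay above both. The log2 fold change of 3.21 ± 1.74 (SE) was 1.23 without triple replicate 3. In triple sample 3 the 10 mesothelial markers, which include the keratin Krt19, summed to 979 CPM, against 93.9 to 355 CPM in the other triple samples and 318 and 426 CPM in the double samples. Epithelial genes were low throughout, with 8 of them at 5.30 to 13.0 CPM in sum in each sample. Of these, 4, such as Grhl2 and Esrp1, were under 1 CPM in every sample. In the triple samples 1 (Epcam) was called higher, beside 2.94% of all genes. The part of mesothelial cells in the level of Krt7 was not tested.

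Lmna, which encodes lamins A and C of the nuclear lamina, was the steadiest member. It reached 711 CPM in double sample 1 and 542 CPM in double sample 2, and the 6 triple samples in order gave 660, 598, 692, 631, 708 and 813 CPM. The groups overlapped, and the log2 fold change was 0.13 ± 0.20 (SE), with -0.04 without double replicate 2. Lmna lies 500 kb from Nes on chromosome 3 (GRCm38, 88480147 to 88509956, minus strand).

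**Figure D3:**
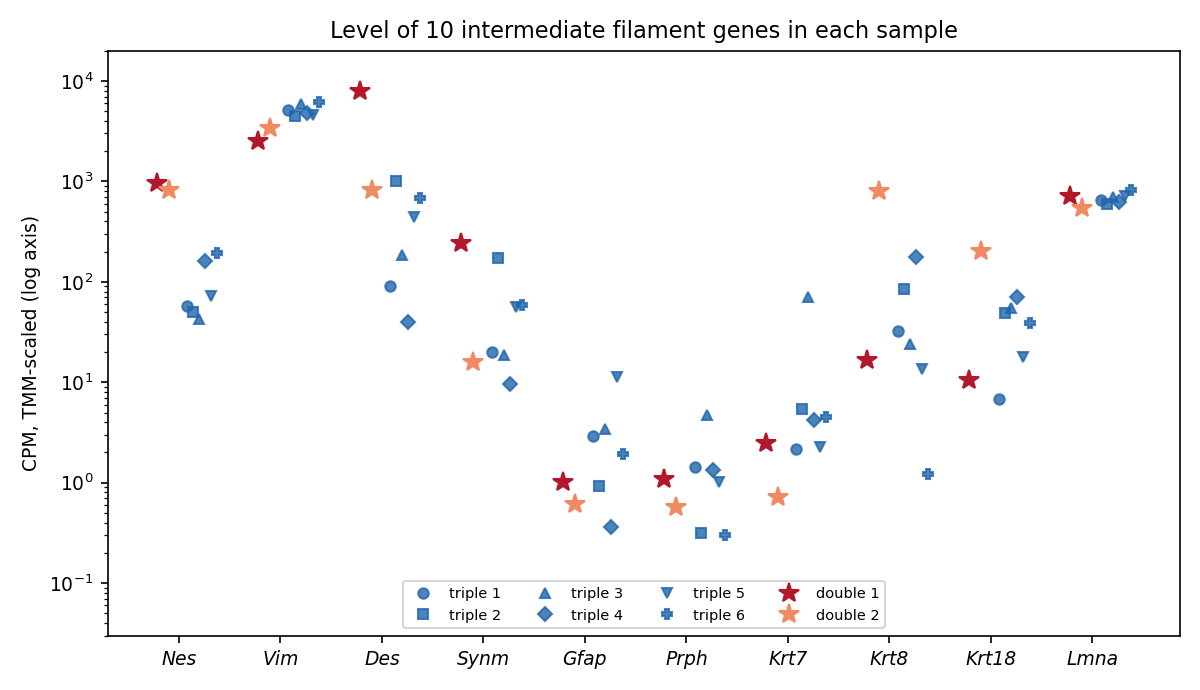
CPM (TMM-scaled, log axis) of the 10 genes in each sample, with stars for the 2 double samples and blue shapes for the 6 triple samples. Both stars of Nes lie above all 6 triple samples, both stars of Vim lie below them, and for Des, Synm, Krt8 and Krt18 the 2 stars lie far apart.

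In the fit over all genes by edgeR's quasi-likelihood test, 8.35% of 17709 genes had a Benjamini-Hochberg adjusted p under 0.05, 5.41% lower and 2.94% higher in the triple samples. All 10 members passed the filter on low counts, and 1 of them, Nes, was called, lower in the triple samples. Groups did not overlap for 2 members, Nes (lower) and Vim (higher), beside 24.1% of all genes tested, 11.4% lower and 12.8% higher in the triple samples. The median log2 fold change was -0.55 over the 10 members and 0.02 over all genes. Nothing is read from these counts, since the contrast served in choosing the members. Nes lost its call without double replicate 1, a fit in which the lone double sample takes its spread from the triple group. Under DESeq2 3 members were called, Nes and Des lower and Vim higher, beside 10.7% of all genes lower and 8.52% higher. Under limma-voom 2 were called, Nes lower and Vim higher, beside 3.76% of all genes lower and 2.29% higher.

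**Figure D4:**
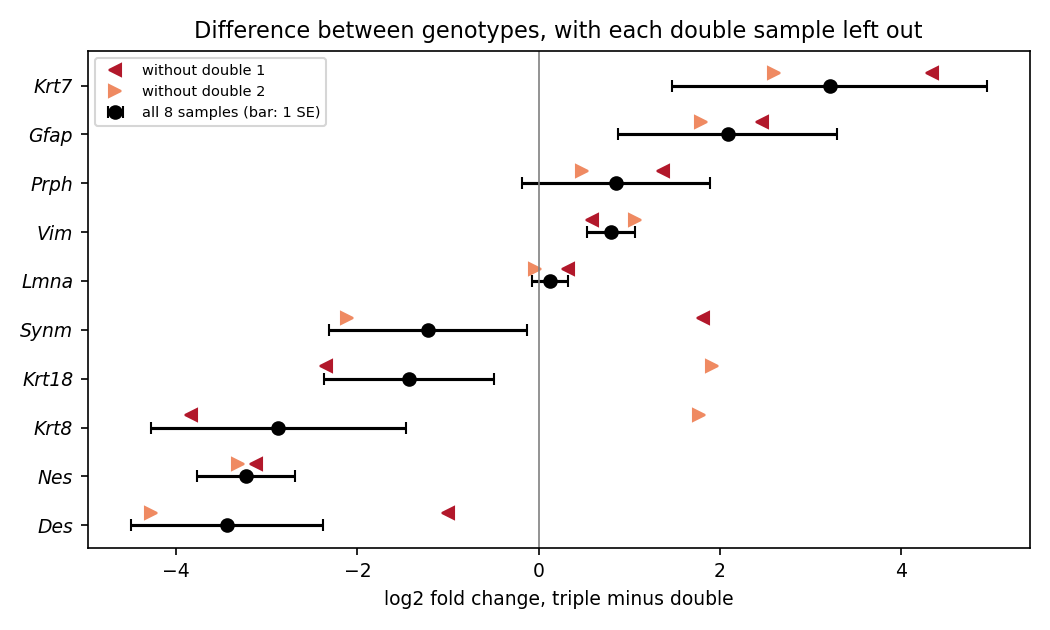
Log2 fold change, triple minus double, of each member over all 8 samples (black, bar 1 SE), and with double sample 1 or double sample 2 left out (coloured triangles). Nes stays between -3.12 and -3.32, while Krt8, Krt18 and Synm change sign with the double sample left out.

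Within the triple samples, whose spread was not used to choose the members, the family split into steady and variable genes. The SD of log2 CPM over the 6 triple samples was 0.19 for Vim and 0.15 for Lmna, against a median of 0.36 over all genes tested. It was 2.46 for Krt8, higher than in 99.3% of genes tested, and 1.84 for Krt7, 1.80 for Des, 1.62 for Gfap, 1.501 for Synm, 1.38 for Prph, 1.26 for Krt18 and 0.91 for Nes. The highest triple sample exceeded the lowest 145-fold for Krt8, 25.5-fold for Des and 4.56-fold for Nes, but 1.38-fold for Vim and 1.36-fold for Lmna.

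Correlations of 12 pairs of genes over the 6 triple samples were tested with exact 2-sided permutations. The smallest possible p of Spearman's rho is 0.00278, and that of Pearson's r can be lower. Des and Synm had Pearson's r = 0.95 (exact permutation p = 0.00972, adjusted p = 0.117 over the 12 pairs) and Spearman's rho = 0.94 (exact permutation p = 0.0167, adjusted p = 0.20). Without the 2 samples farthest from the median of Des r was 0.92. This was the only pair with an unadjusted p under 0.05, and 0 of 12 passed the adjustment. Krt8 and Krt18, the partner chains, had r = 0.19 (exact permutation p = 0.669, adjusted p = 0.893) and rho = 0.49 (exact permutation p = 0.356, adjusted p = 0.61), with r = 0.32 without the 2 farthest samples. Nes and Myog had r = 0.11 and Nes and Des r = -0.15 (exact permutation p = 0.826 and 0.747, both adjusted p = 0.90). Their rho was 0.37 and -0.09 (exact permutation p = 0.497 and 0.919), adjusted to 0.746 and 1, and without the 2 farthest samples r was 0.75 and 0.06. Both correlations turned with 1 sample: for Nes and Myog r was 0.93 without triple replicate 4 and -0.69 without triple replicate 6, and for Nes and Des 0.38 and -0.64.

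Per kilobase of exon, the order of the members differed between the genotypes. In the triple samples Vim was first at a mean of 1089 CPM per kb (936 to 1294), followed by Lmna at 117 and Des at 109 CPM per kb. Lmna (102 to 139) and Des (10.6 to 270) did not differ beyond their spread, and neither did Krt8 at 28.4, Krt18 at 27.7 and Nes at 14.9 CPM per kb. Synm followed at 7.09 CPM per kb, and Krt7, Gfap and Prph were last at 2.09, 0.821 and 0.756 CPM per kb, with overlapping ranges. In the double samples Des was first at a mean of 1179 CPM per kb, but its 2 values, 2140 and 218, lay on both sides of those of Vim, 528 and 722. Nes, at 151 and 129 CPM per kb, stood above Lmna, at 122 and 92.9 CPM per kb, in each double sample. In every triple sample Nes stood below Lmna. The order in the double samples depends on the merged exon lengths used, 6.42 kb for Nes and 5.84 kb for Lmna. These join all annotated transcripts of a gene, and the transcripts made in the samples may be shorter.

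As a share of the summed level per kilobase of the 10 genes, Vim held 66.1% to 86.5% in the triple samples, against 17.7% and 42.1% in double samples 1 and 2. Des held 71.6% in double sample 1, and Krt7, Krt8 and Krt18 together 32.1% in double sample 2. Beside Vim, the most abundant gene was Des in double sample 1 and Krt8 in double sample 2. Nes held 5.04% and 7.53% in the double samples and 0.45% to 1.93% in the triple samples.

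**Figure D5:**
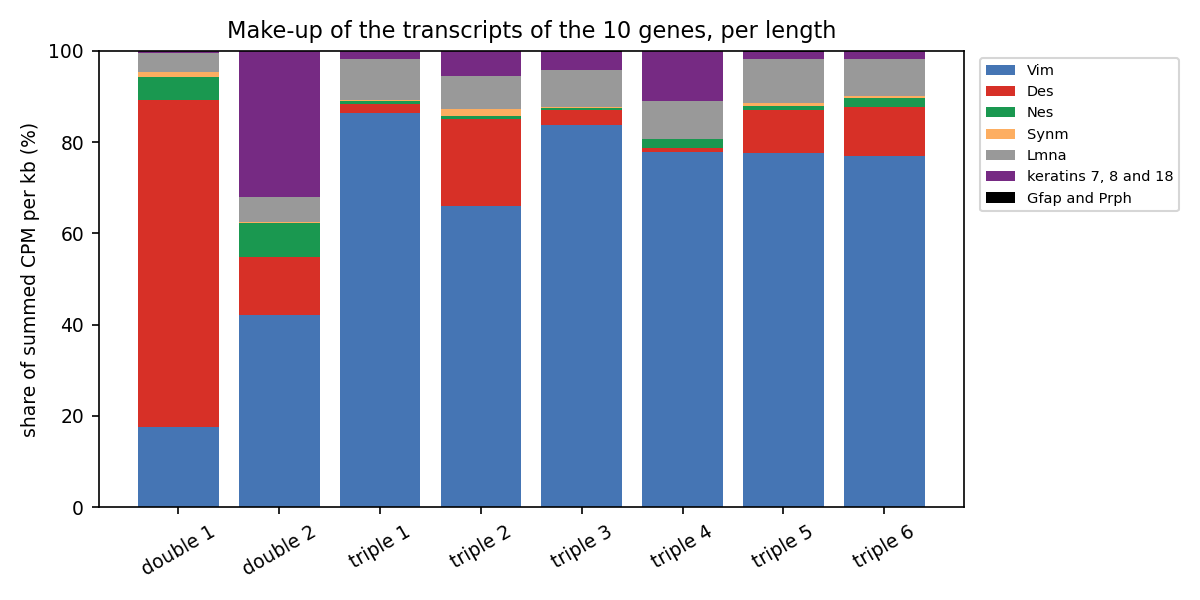
Share of each gene or gene group in the summed CPM per kilobase of the 10 members, in percent, 1 bar per sample. Vim fills 66.1% to 86.5% of the triple bars, Des 71.6% of the bar of double sample 1, and the keratins 32.1% of that of double sample 2.

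The genes most like Nes over the 8 samples, by Pearson's r of log2 CPM among 14822 protein-coding genes tested, were Pwp1, Smndc1, Nip7, Nob1 and Pvr, with r of 0.962 to 0.974. They spanned a far smaller range than Nes: Nob1 had 76.9 and 72.4 CPM in the double group and ranged from 37.5 to 49.7 CPM in the triple group. For Des the closest genes were Myom2, Sgca, Trim63, Srl and Alpk3, genes of the sarcomere, the muscle membrane and its reticulum, with r of 0.993 to 0.998. Myom2 had 2217 and 129 CPM in the double group and ranged from 1.36 to 107 CPM in the triple group. For Vim they were Col3a1, Ydjc, Slc4a2, Arhgef25 and Gpr161 (r of 0.973 to 0.985), and the collagen Col3a1 had 2792 and 4553 CPM in the double group and ranged from 6817 to 10110 CPM in the triple group. For Krt18 they were Mnd1, Gm42715, Slc39a11, Gria2 and Gtf2a1 at lower r, 0.893 to 0.923. All 8 points share the split between the genotypes and the distance of double sample 1, so these are descriptions of likeness.

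The other genes of the filament system were taken from 6 lists with 106 genes, of which 104 were in the tables, 90 had a count and 55 were tested. The lists were chosen with earlier results of these data known, so nothing is read from their counts or medians. By edgeR 8 fell in the triple samples, 14.5% of those tested beside 5.41% of all genes, 0 rose and 47 did not pass. The median log2 fold change was -0.34, beside 0.02 over all genes. At an unadjusted p under 0.05 there were 19 lower and 3 higher, beside 27.9% of all genes (16.1% lower and 11.8% higher). DESeq2 called 12 lower and 2 higher and limma-voom 6 lower and 0 higher, to be read against the shares of all genes given above. The edgeR count moved with that over all genes. It was 3 lower and 1 higher without double replicate 1, where 1.14% of all genes were called lower and 0.553% higher. It was 18 lower and 4 higher without double replicate 2, where 15.8% of all genes were called lower and 13.7% higher. It was 4 lower and 0 higher without triple replicate 1, where 2.38% of all genes were called lower and 1.23% higher.

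Few of the other keratins had enough counts to be tested. Of 27 type I keratins besides Krt18, 20 had a count and 3 were tested, with none called by edgeR, DESeq2 or limma-voom and none at an unadjusted p under 0.05. Krt19, a keratin of simple epithelia and mesothelium, was at 0.12 and 0.43 CPM in the double group, at 52.9 CPM in triple sample 3 and at 0.73 CPM or less in the rest (edgeR adjusted p = 0.362). Krt14, a basal cell keratin, stood at 30.8 CPM in triple sample 3 and at 0.82 CPM or less in every other sample (edgeR adjusted p = 0.409). The median log2 fold change of the 3 tested genes, 3.09, was that of Krt14. Of 24 type II keratins besides Krt7 and Krt8, 16 had a count and 1 was tested. Krt80 fell by 3.66 ± 0.71 (SE) on the log2 scale (edgeR adjusted p = 0.0214), from 92.6 and 5.92 CPM to 2.15 to 5.64 CPM. It was the leading type II keratin of double sample 1, with 61.8% of their summed level per kilobase, and its log2 fold change was -0.61 without double replicate 1 (edgeR adjusted p = 0.673). The adjusted p was also above the threshold without triple replicate 1 (0.0528) and under limma-voom (0.136).

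Among 9 tested filament genes of other classes 2 fell, 0 rose and 7 did not pass, beside 5.41% of all genes lower and 2.94% higher. DESeq2 called 2 lower and 1 higher, beside 10.7% and 8.52% of all genes. Limma-voom called 2 lower and 0 higher, beside 3.76% and 2.29%. This list was chosen with earlier results of these data known. Sync encodes syncoilin, a muscle filament protein that binds desmin. It had 134 and 40.8 CPM in the double group and ranged from 3.68 to 21.1 CPM in the triple group, a log2 fold change of -3.01 ± 0.58 (SE, edgeR adjusted p = 0.0206). Sync was no longer called in the fits without double replicate 1 (-1.91, adjusted p = 0.24) or triple replicate 1 (adjusted p = 0.05). Iffo1, a filament family member of the nucleus, stood at 194 and 82.5 CPM against 24.2 to 31.4 CPM, a log2 fold change of -2.31 ± 0.26 (SE, edgeR adjusted p = 0.00292), and kept its call under the 15 alternative fits.

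Of 12 cytolinkers and desmosome anchors, which tie filaments to junctions and to other parts of the cytoskeleton, 4 fell, 0 rose and 8 did not pass. Over all genes 5.41% were called lower and 2.94% higher. The median log2 fold change of the list was -0.61. DESeq2 and limma-voom each called 4 lower and 0 higher, beside 10.7% and 3.76% of all genes called lower. None was higher at an unadjusted p under 0.05. This list too was chosen with earlier results of these data known. Jup, the gene of plakoglobin, had 404 and 218 CPM in the double group and ranged from 35.0 to 98.8 CPM in the triple group, a log2 fold change of -2.20 ± 0.41 (SE, edgeR adjusted p = 0.0193). The plakophilin Pkp1 had 20.3 and 70.5 CPM where no triple sample exceeded 0.32 CPM, and it kept its call under all 15 alternative fits (edgeR adjusted p = 0.00189). Pkp2 had 26.7 and 37.6 CPM against 1.26 to 11.03 CPM (edgeR adjusted p = 0.036). Macf1, a giant linker of microtubules and actin, fell by 1.06 ± 0.21 (SE) on the log2 scale (edgeR adjusted p = 0.023). Jup and Macf1 lost their call without double replicate 1 (adjusted p = 0.166 and 0.146). Pkp2 lost its call without double replicate 1 or 2, or without triple replicate 1, 2, 3 or 5 (adjusted p = 0.0581 to 0.127), and with the description code as a term (0.0627). Desmoplakin, Dsp, the direct keratin anchor, was chosen after its values were seen: it had 28.0 and 0.65 CPM in the double group and ranged from 0.33 to 6.50 CPM in the triple group.

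Among 11 tested chaperones and turnover factors of filaments 1 fell, 0 rose and 10 did not pass, beside 5.41% of all genes lower and 2.94% higher. DESeq2 called 3 lower and 1 higher, and limma-voom called 0. At an unadjusted p under 0.05 there were 4 lower and 1 higher, where the share over all genes was 27.9%. Klhl24, a ubiquitin ligase adaptor that acts on keratin, had 371 and 78.6 CPM in the double group and ranged from 41.9 to 73.9 CPM in the triple group. Its log2 fold change of -1.94 ± 0.44 (SE, edgeR adjusted p = 0.0342) was -0.43 without double replicate 1, and it lost its call whichever triple sample was left out (adjusted p = 0.056 to 0.0725). Of 19 genes of the nuclear lamina and envelope, edgeR and limma-voom called 0 and DESeq2 2 lower, with 7 lower and 1 higher at an unadjusted p under 0.05, where the share over all genes was 27.9%. DESeq2 called 10.7% of all genes lower. Sun2, an envelope protein that links the lamina to the cytoskeleton, stood at 422 and 122 CPM against 89.2 to 150 CPM (log2 fold change -1.35 ± 0.38, SE; edgeR adjusted p = 0.0612). For Sun2 it was -0.21 without double replicate 1 (edgeR adjusted p = 0.807) and -1.97 without double replicate 2 (edgeR adjusted p = 0.00212). Syne2, its partner on the outer membrane, stood at 30.4 and 36.3 CPM against 43.0 to 72.5 CPM (0.70 ± 0.24, SE; edgeR adjusted p = 0.104).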

How the data were processed

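The deposited values are raw counts of reads per gene, as whole numbers in 1 table for each sample. The submitters' processing notes name HTSeq, DESeq2, mm10 and GRCm38 with no role. Aligner, annotation release and strand setting: not given in the sources used here. Without strand, a gene's reads and those of an overlapping or antisense neighbour cannot be separated. Of 52636 genes, 52403 had a symbol and 49907 had the coordinates of GENCODE M21, whose merged exons gave lengths. Merged exons join all annotated transcripts of a gene, so levels, ratios and shares per kilobase depend on the annotation. For Krt8 and Krt18 the file coordinates, which differ slightly from M21, are printed.

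After the filterByExpr filter and TMM scaling, triple minus double was tested with edgeR's quasi-likelihood test, version 4.0.16 (R 4.3.3) over all 8 samples, called at an adjusted p under 0.05. Standard errors came from the test statistic. A prior count of 2 entered the log2 levels. Alternatives were DESeq2 1.42.0, limma-voom (limma 3.58.1), RLE and upper-quartile scaling, no filter, 1 CPM in at least 2 samples, a term for the description code, and fits without each sample in turn. The term for the description code set samples with SN930 against samples with any other code, and did not separate the other codes.

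The members and lists were chosen with earlier results of these data known. Named genes are the 10 members, up to 4 called genes of smallest p per list (or 2 where none was called), and the 5 genes most like Nes, Des, Krt18 and Vim. Dsp, Krt13, Nefl, Nefm, Lmnb1, Lmnb2, Cryab and Tubb3 fall outside this rule and were chosen after their values were seen. Replicate numbers follow accession order and pair no samples. As the labels do not tell cultures from mice, p-values reflect only how these samples vary, which may be technical. No 2 samples agreed within sampling noise. Of the marker lists, smooth muscle had 1 gene lower of 5 tested, leukocytes 2 higher of 8, endothelium 1 lower of 8, and neurons none of 5. Over all genes 5.41% were called lower and 2.94% higher, and nothing is read from the marker counts.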

Additional observations from a re-analysis of the deposited data

Results flagged for a closer look

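In the 6 triple samples, 7 levels stood apart from the rest, where the gap to the nearest sample took more than 0.625 of the whole range. For normally distributed levels, chance alone would flag about 1 in 20 of the 22 genes looked at. The cut was applied to CPM without a log, so the rate by chance may be higher. Nothing is read from the number flagged. Triple sample 3 was the highest for Krt7 (69.9 CPM, others 2.16 to 5.47, gap 0.951 of the range), Krt19 (52.9 CPM, others 0 to 0.733, gap 0.986), Krt14 (30.8 CPM, others 0.265 to 0.823, gap 0.982) and Prph (4.68 CPM, others 0.30 to 1.43, gap 0.743). The same sample held the high levels of Upk3b, Upk1b and Muc16 given above. Triple sample 2 was the highest for Synm (174 CPM, others 9.61 to 58.5, gap 0.703) and had the largest sum of adult muscle markers among the triple samples. Triple sample 5 was the highest for Gfap (11.2 CPM, others 0.364 to 3.40, gap 0.72), and triple sample 6 for Sun2 (150 CPM, others 89.2 to 109, gap 0.679).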

How the results depend on the processing

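Over all genes the count of calls, 1478, became 3380 with DESeq2, 962 with the description code as a term, and 315 to 5579 when 1 sample was left out (lowest without double replicate 1, highest without double replicate 2). For the lists, DESeq2 called 4 chaperone and turnover genes and 2 lamina genes, limma-voom called 0 chaperone and turnover genes and 0 type II keratins, and the code term gave 0 in both. With no filter 1 type I keratin was called, Krt13, named after its values were seen. Leaving out 1 sample gave 0 to 1 type II keratins, 1 to 4 other filament genes, 1 to 4 cytolinkers, 0 to 6 chaperones and 0 to 8 lamina genes. The cause of these changes was not tested, and fits without a double sample hold 1 double sample. RLE scaling, upper-quartile scaling and the filter of 1 CPM moved no list count. The 12 pairs gave 0 calls without TMM factors and with a prior count of 0.5. Correlations over 5 triple samples were computed without a test. The description code SN930, of unstated meaning, is on 1 double and 3 triple samples. No paired analysis was possible because the labels give the samples no shared replicate numbers. The fit with 962 calls set SN930 against any other code, so it did not block on each code. Fewer than 20 counts in a sample limit Gfap, Prph and most keratins.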

Other observations

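The neurofilament genes Nefl and Nefm, which encode the light and medium chains of neuronal filaments, divided the triple samples. Both were chosen after their values were seen. Nefl stood at 65.4, 77.5 and 63.4 CPM in triple samples 1, 4 and 5, and at 4.30, 9.69 and 8.83 CPM in triple samples 2, 3 and 6. Nefm stood at 39.0, 76.6 and 34.0 CPM in triple samples 1, 4 and 5, and at 3.83, 2.47 and 4.73 CPM in the other 3. The double samples had 1.497 and 7.504 CPM of Nefl, and 1.17 and 6.82 CPM of Nefm. The heavy chain gene Nefh stayed at 0.54 CPM or less in all 8 samples. The 8 neuronal markers summed to 22.1 and 186 CPM in the double samples and to 45.9 to 306 CPM in the triple samples, most of it from Stmn2 (17.8 to 296 CPM over the 8 samples). Elavl3, Rbfox3 and Syt1 stayed under 1 CPM in every sample. Tubb3, a neuronal tubulin also chosen after its values were seen, had 17.0, 37.2 and 23.0 CPM in triple samples 1, 4 and 5. It had 4.24, 6.64 and 8.66 CPM in triple samples 2, 3 and 6, and 1.94 and 21.8 CPM in double samples 1 and 2. Stmn2 did not divide the triple samples in this way. It had 23.7, 78.0 and 116 CPM in triple samples 1, 4 and 5, and 194, 296 and 70.8 CPM in triple samples 2, 3 and 6. The part of neuronal cells in these levels was not tested.

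The lamins also differed in proportion, and Lmnb1 and Lmnb2, the B-type lamins, were likewise chosen after their values were seen. Lmnb1 stood at 18.7 CPM in double sample 1 and at 76.1 to 128 CPM in the other 7 samples, so the level of Lmna per kilobase was 19.3 times that of Lmnb1 in double sample 1 and 2.80 to 4.62 times in the others. Lmnb2 was highest in double sample 2, at 75.5 CPM, against 27.7 to 40.0 CPM in the other 7 samples. Cryab, of the small heat shock proteins that guard desmin, was also chosen after its values were seen and was not called (edgeR adjusted p = 0.0738). It reached 2084 CPM in double sample 1 and 160 CPM in double sample 2. The 6 triple samples in order gave 50.7, 297, 61.1, 21.2, 181 and 138 CPM. Its highest and lowest triple samples, 2 and 4, were also those of Des.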
